A study of Homo sapiens with 12 samples.

Results

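The response of 2 gastric cancer cell lines to verteporfin (VP) was compared gene by gene, by subtracting the VP change of AGS cells from that of MKN45 cells. All 12 arrays of the series entered this comparison, in 4 groups of 3: MKN45 cells given VP, MKN45 cells given its solvent DMSO, AGS cells given VP and AGS cells given DMSO. RNA was hybridised to Illumina HumanHT-12 V4 arrays, on which the brightness of a bead type reads 1 probe. The labels give a treatment of 36 hours, the study's methods give another duration, and neither states the dose that the arrays received. The labels give no genetic change in either line. Whether the 3 arrays of a group are separate cultures is not stated, and the p-values below rest on the spread among them, which may be only technical.

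Verteporfin is a porphyrin photosensitiser that was developed for macular degeneration and is also known as an inhibitor of the binding of YAP1 to TEAD transcription factors. AGS and MKN45 are established lines from human gastric adenocarcinomas. MKN45 is known for an amplified MET gene, which encodes the receptor of hepatocyte growth factor, and AGS for the loss of E-cadherin, the product of CDH1. A treatment can differ between lines because a gene moves in one line and not the other, moves further in one, or moves the opposite way. The contrast used here, called the interaction below, is VP minus DMSO on the log2 scale in MKN45, minus the same in AGS. It is positive where the change was higher in MKN45, including where a gene fell less there, and negative where it was lower in MKN45. In whole cultures, a change in the mix of cells and a change in RNA per cell cannot be told apart.

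The authors deposited 2 tables of 47323 probes under the same sample names, and the arrays labelled MKN45 differed between them. In the signals, the linear probe brightness, MET was 8.95, 9.08 and 8.98 in the arrays labelled MKN45 DMSO and 8.89, 8.84 and 8.64 in those labelled AGS DMSO, on the log2 scale after normalization. The mean difference was 0.22, against 3.72 in the value table, the authors' normalized log2 values. CDH1 differed by 0.83 in the signals and by 3.83 in the value table. CEACAM5, a surface glycoprotein of gastrointestinal carcinomas, differed by 1.19 and 4.53, and CEACAM6 by 0.39 and 3.26. CDH17, the liver-intestine cadherin, was lower in MKN45 by a difference of -0.63 in the signals, against -2.22 in the value table. Levels of the lines in the value table were normalized separately and are not on one scale, but their medians differed by little, at 6.631 for MKN45 and 6.611 for AGS.

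**Figure D1:**
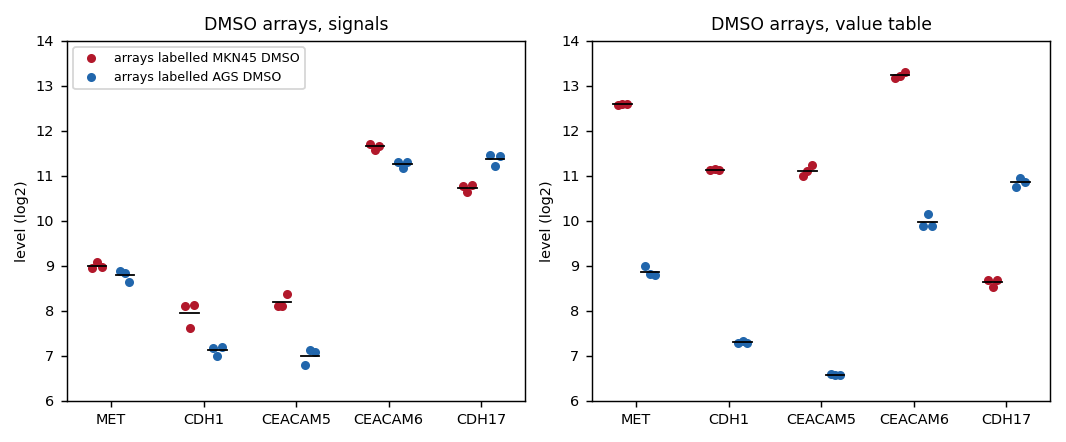
Level (log2) of 5 genes that are known to differ between gastric cancer lines, on each DMSO array, with arrays labelled MKN45 in red and arrays labelled AGS in blue, the signals on the left and the value table on the right, and black bars at the means. MET lies 0.22 apart between the line labels in the signals and 3.72 apart in the value table.

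Between the DMSO arrays of the line labels, 26 of 9696 genes lay over 2 log2 units apart in the signals, against 109 in the value table. Over genes, which are not independent replicates, these differences correlated at 0.23 between the tables. The interactions correlated at -0.00106, the VP changes at -0.11 in MKN45 and -0.0727 in AGS, and the mean levels at 0.926. The signals therefore go against the label MKN45 for MET, and a line is named below for the signals only as the label of an array. Each table is described on its own, first the signals, with the other table named wherever it is set beside them. Epithelial markers were above background on all 12 arrays for 7 of 7 genes in the signals, whereas 4 of 4 endothelial, 5 of 6 fibroblast and 4 of 6 leukocyte markers were above background on none. Single arrays detected 14523 to 16571 probes (detection p under 0.01), and precision is limited by the number of arrays.

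In the signals, genes entered the test if any group detected a probe on each of its 3 arrays, which gave 9696 genes. The interaction passed an adjusted p of 0.05 (limma, two-sided, Benjamini-Hochberg over all genes tested) in 1087 genes, 11.2% of those tested. The change was higher in arrays labelled MKN45 for 558 of them (5.75%) and lower for 529 (5.46%). These shares over all genes are the background for the calls of each list in the signals. Without AGS VP replicate 1 the count was 698, without AGS VP replicate 2 it was 684, and with arrays aligned by a median shift it was 428, while array weights gave 1806. The 3 smaller sets were nearly all drawn from the same genes, with 661, 662 and 404 of them among the 1087 and none of these with another sign. Over genes, the VP changes of the line labels correlated at 0.80, with an SD of 0.59 in MKN45 and 0.70 in AGS.

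The called differences were sorted by whether the VP change passed the test in each line. A change that did not pass is not shown to be absent, and it may have the other sign. Of the 1087 genes, 427 had a VP change that passed the test in AGS alone and 186 in MKN45 alone, 2 in neither. In 316 genes the change passed in both lines in one direction and was larger in AGS, as 177 rises and 139 falls. In 77 genes it was larger in MKN45, as 62 rises and 15 falls. In 79 genes the change passed in both lines in opposite directions, higher in MKN45 for 37 and lower for 42. The interaction was not called for 2495 of the 3108 genes whose change passed in 1 line only. A change that passed in a single line was therefore not read as a difference between the lines.

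**Figure D2:**
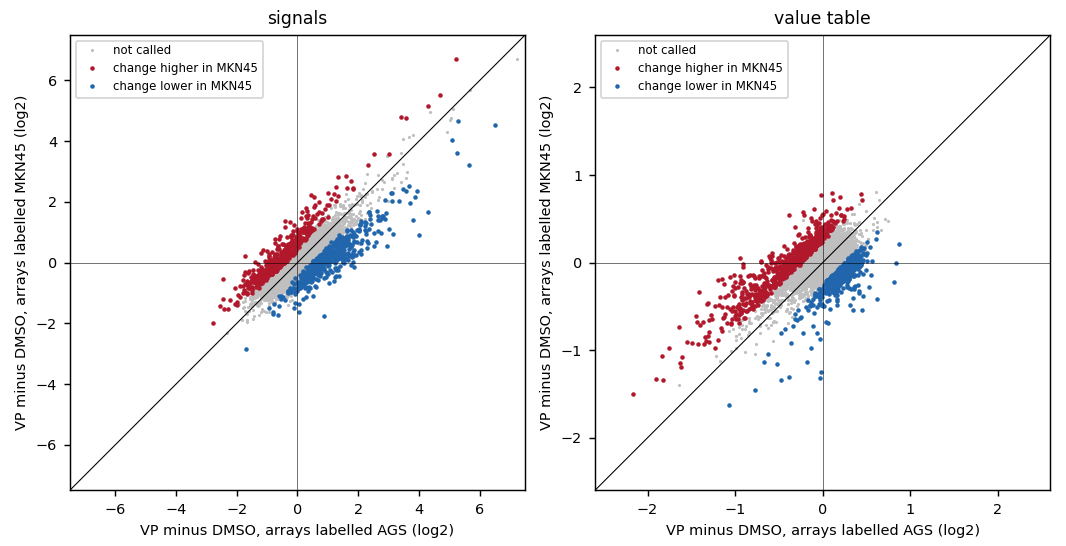
VP change (log2, VP minus DMSO) of arrays labelled MKN45 on the vertical axis against that of arrays labelled AGS on the horizontal axis, 1 point per gene, in the signals (left) and the value table (right), with called interactions in red (higher in MKN45) and blue (lower in MKN45). The axes of the panels differ in range, and the diagonal marks equal changes.

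Of the lists with 10 or more measured members, the interferon-stimulated genes had the highest share of called members in the signals. These genes are switched on through interferon receptors and act against viruses. Of 26 measured members, 17 were called lower in MKN45 and 0 higher, and 25 had an interaction below 0. The median interaction was -0.9997, against 0.03 over all genes. With VP, 15 members rose and 0 fell in AGS (background 26.3% and 30%), whereas 4 rose and 8 fell in MKN45 (background 22.9% and 23.1%). The members also differed in level before treatment. In 25 of 26 the DMSO level was higher in MKN45, by a median of 1.16, and under VP the median difference was 0.25.

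Promoters of such genes are known for the interferon-stimulated response element, whose core was searched here as GAAA, any 2 bases and GAAA again, on either strand (TTTC, any 2 bases and TTTC in reverse). In the RefSeq promoters (GRCh38.p14, windows of 300 bases around a start), 16 of 21 measured members with an entry held it, against 3.8% of the genes tested and 4.38% of all 27305 genes with an entry. Among the members with an entry, it was 12 of 13 of those called in the interaction and 4 of 8 of those not called. A gene with several promoters was counted once if any held the motif, and a match is a description and not a site. The promoters of 3 members that moved differently between the lines are shown, with the motif in capitals and overlapping matches run together. They lie at chr19:17405581-17405880 (minus strand), chr10:89392373-89392672 (plus strand) and chr1:78620198-78620497 (plus strand).
BST2: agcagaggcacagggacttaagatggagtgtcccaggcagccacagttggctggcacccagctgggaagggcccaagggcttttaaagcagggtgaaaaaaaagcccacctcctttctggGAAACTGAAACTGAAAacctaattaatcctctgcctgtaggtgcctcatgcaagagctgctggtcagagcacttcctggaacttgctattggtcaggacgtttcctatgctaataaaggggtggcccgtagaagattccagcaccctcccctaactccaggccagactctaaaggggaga
IFIT1: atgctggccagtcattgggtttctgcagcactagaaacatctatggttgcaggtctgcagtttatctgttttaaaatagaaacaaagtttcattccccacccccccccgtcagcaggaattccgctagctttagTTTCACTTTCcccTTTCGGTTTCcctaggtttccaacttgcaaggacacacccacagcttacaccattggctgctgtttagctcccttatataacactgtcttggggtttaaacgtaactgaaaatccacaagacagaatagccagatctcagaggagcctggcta
IFI44L: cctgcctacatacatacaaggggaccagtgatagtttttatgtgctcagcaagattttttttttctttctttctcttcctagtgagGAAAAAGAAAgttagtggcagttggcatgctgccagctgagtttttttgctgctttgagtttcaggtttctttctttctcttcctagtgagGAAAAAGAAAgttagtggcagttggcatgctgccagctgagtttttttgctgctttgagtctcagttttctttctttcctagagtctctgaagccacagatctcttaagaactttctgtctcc

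IFI27, a mitochondrial protein that is induced by type I interferon, had the largest difference of any gene above background on all 12 arrays. It was at 11.68, 11.77 and 11.48 in MKN45 VP arrays, 10.50, 10.86 and 10.86 in MKN45 DMSO, 11.72, 11.84 and 11.84 in AGS VP and 7.57, 8.29 and 7.58 in AGS DMSO. The AGS DMSO arrays stood apart from the other 9, and the VP arrays of the lines overlapped. The change was 0.90 in MKN45 and 3.99 in AGS, and the interaction was -3.08 ± 0.25 (SE, adjusted p = 1.39e-05).

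BST2, known as tetherin, holds budding virus particles at the cell surface. Its levels were 5.84, 5.84 and 5.54 in MKN45 VP, 7.34, 7.47 and 7.67 in MKN45 DMSO, 6.18, 6.33 and 6.58 in AGS VP and 5.71, 5.59 and 5.21 in AGS DMSO, where it was not well above background on any array. It fell by 1.75 in MKN45 and rose by at least 0.56 in AGS, so that the lines moved in opposite directions (interaction -2.62 as measured, adjusted p = 1.39e-05). IFIT1, which binds viral RNA ends, changed by -0.24 in MKN45, which did not pass the test, and rose by 1.08 in AGS. Its MKN45 VP arrays, at 10.47, 10.41 and 10.40, overlapped with none of the AGS arrays, which were at 9.87, 9.82 and 9.97 with VP and 8.75, 8.83 and 8.84 with DMSO. IFIT3, its partner, was at 7.96, 8.15 and 7.78 in MKN45 VP and 8.25, 7.95 and 8.10 in MKN45 DMSO, groups that overlapped. In AGS it rose by at least 1.17, to 7.10, 6.99 and 6.84, since no AGS DMSO array was well above background. A second IFIT3 probe was not called (interaction -0.70, against -1.99).

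ISG20, an exonuclease, rose by 0.34 in MKN45 and 2.02 in AGS. UBE2L6, the conjugating enzyme of the ISG15 modifier, changed by -0.23 in MKN45, which did not pass, and rose by 1.28 in AGS. IRF7, a transcription factor of the interferon response, changed by 0.41 and 1.88 in the same order, the first of which did not pass. IFI44L, IFITM3 and IFITM1 fell in MKN45 and did not pass in AGS. IFI44L was above background only on the MKN45 DMSO arrays, at 6.18, 5.98 and 5.73, and the other 9 arrays lay at 4.37 to 4.55. A brighter probe of IFI44L that did not pass the detection filter gave an interaction of -0.18 (adjusted p = 0.801). IFITM3, which blocks virus entry, fell by 0.96 in MKN45, where the VP arrays were at 11.67, 11.60 and 11.63 and the DMSO arrays at 12.45, 12.74 and 12.59, and changed by -0.22 in AGS. Among the 17 members detected on all 12 arrays, 11 were called lower. ISG15 and OAS1 were not called, with interactions of -0.36 ± 0.16 and -0.08 ± 0.20. The markers of leukocytes that were above background on all 12 arrays were LYZ and CD68, and the part of other cells in these values was not tested.

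**Figure D3:**
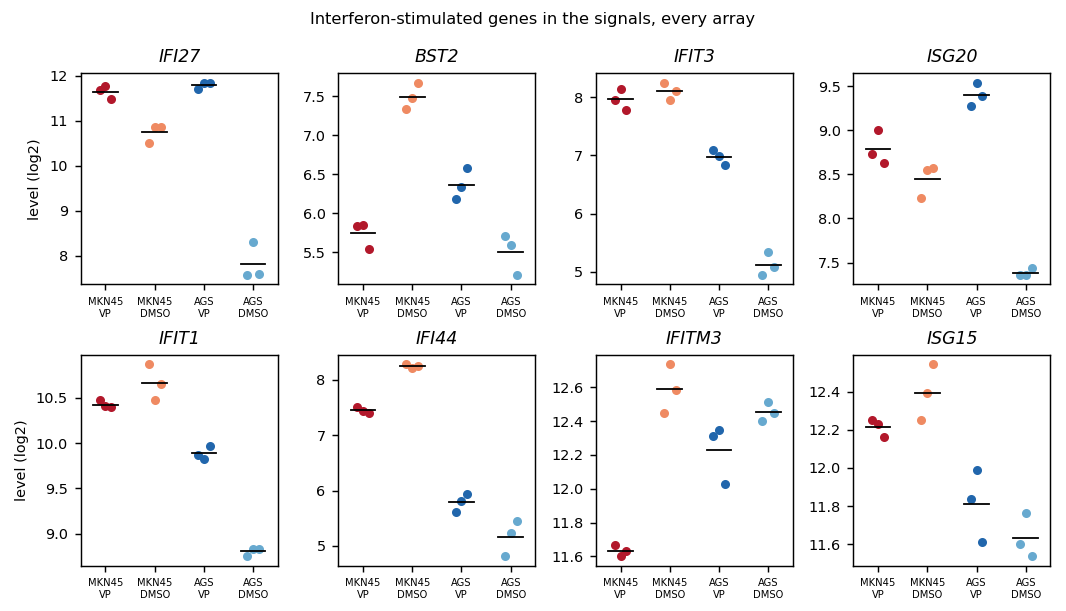
Level (log2) of 8 interferon-stimulated genes on each of the 12 arrays in the signals, by group (MKN45 VP, MKN45 DMSO, AGS VP, AGS DMSO, by label), 1 point per array and a bar at the mean. For IFI27, ISG20, IFIT3 and IFIT1 the AGS DMSO arrays are the lowest, and for BST2 and IFI44 the MKN45 DMSO arrays are the highest.

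The genes of the integrated stress response rose in both lines and further in AGS. ATF4 is translated when amino acids are short or proteins misfold, and induces genes of amino acid synthesis and uptake and the factor CHOP, encoded by DDIT3. Of 17 measured members, 14 rose in MKN45 and 16 in AGS (background 22.9% and 26.3%). The interaction was called lower in MKN45 for 7 and higher for 1, with a median of -0.43. Without MKN45 DMSO replicate 1, AGS VP replicate 1 or AGS VP replicate 2 the calls were 5 lower and 0 higher, with 1 array left out at a time. No member was called higher without MKN45 VP replicate 1, MKN45 VP replicate 2 or AGS DMSO replicate 2 either, or with a median shift. DDIT3 thus lost its call in each of these.

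TRIB3, a pseudokinase that feeds back on this response, was at 9.58, 10.02 and 8.83 in MKN45 VP and 7.72, 7.86 and 7.87 in MKN45 DMSO, against 8.92, 8.91 and 8.77 in AGS VP and 4.51, 4.51 and 4.65 in AGS DMSO. Its rise was 1.66 in MKN45 and at least 3.06 in AGS, whose DMSO arrays were not well above background (adjusted p of the interaction = 1.39e-04). ASNS, asparagine synthetase, rose by 2.52 in MKN45 and 3.67 in AGS, to VP levels of 12.11, 12.16 and 11.36 in MKN45 and 13.05, 12.92 and 12.84 in AGS. MTHFD2 and PSAT1, of mitochondrial folate metabolism and serine synthesis, had interactions of -0.99 and -1.14. DDIT3 was the member called the other way, with a rise of 2.42 in MKN45 and 1.83 in AGS, and ATF5 fell in both lines, with changes of -1.74 in MKN45 and -0.65 in AGS.

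Amino acid transporters and aminoacyl-tRNA synthetases, which load amino acids onto their tRNAs, held called interactions in the same direction, while not all of their members rose. Over all genes, 22.9% rose and 23.1% fell in MKN45, and 26.3% rose and 30% fell in AGS. Of 11 transporters, 6 rose and 1 fell in MKN45, and 8 rose and 2 fell in AGS. In the interaction 5 were called lower in MKN45 and 0 higher, 3 without AGS VP replicate 1. SLC7A11, the cystine carrier, rose in AGS VP arrays to 9.04, 8.97 and 9.07, by at least 3.22, and in MKN45 VP arrays to 7.5032, 7.69 and 6.29, by at least 1.47. Neither line was well above background in DMSO, and the call was lost without a detection filter (adjusted p = 0.058). SLC1A5, a glutamine carrier, changed by 0.38 in MKN45, which did not pass, and rose by 1.45 in AGS. Of 18 synthetases, 9 rose and 2 fell in MKN45, 11 rose and 1 fell in AGS, and 6 were called lower in MKN45 and 0 higher. SARS1, for serine, was at 10.17, 10.19 and 9.70 in MKN45 VP and 9.5973, 9.48 and 9.64 in MKN45 DMSO, against 10.96, 11.02 and 10.87 in AGS VP and 9.42, 9.56 and 9.41 in AGS DMSO. With a median shift, 1 synthetase, 3 transporters and 4 ATF4 genes were called lower, and none of these lists had a member called higher.

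The beta and gamma chains of fibrinogen, the clotting protein that the liver makes, rose in both lines of the signals and further in AGS. Only 4 of 19 listed genes of fibrinogen and the acute phase passed the detection filter, and with no filter 2 of the 19 were called lower in MKN45 and 0 higher, with a median interaction of -0.09. FGG, the gamma chain of fibrinogen, reached similar levels with VP, at 13.56, 13.64 and 13.60 in MKN45 and 13.33, 13.17 and 13.20 in AGS. Its DMSO levels were 10.35, 10.36 and 10.41 in MKN45 and 7.63, 7.54 and 7.60 in AGS, so the rise was 3.23 in MKN45 and 5.64 in AGS (interaction -2.42 ± 0.12, adjusted p = 1.93e-07). Another probe of FGG had an interaction of -0.34, which did not pass. FGB, the beta chain, rose by 4.68 in MKN45 and 5.27 in AGS, a difference that was called (adjusted p = 0.0343) with all arrays and kept its call only without MKN45 DMSO replicate 3, AGS VP replicate 2 or AGS DMSO replicate 1 (adjusted p of 0.0522 to 0.0817 without each of the other 9). SERPINA3, an acute phase protease inhibitor, passed the filter through the AGS VP arrays alone, at 6.75, 6.25 and 6.51. PTGS2, the inducible cyclooxygenase, rose by 2.17 in MKN45 and 3.88 in AGS, and had DMSO levels of 9.92, 9.87 and 9.78 in MKN45 and 8.36, 8.11 and 8.37 in AGS. In the value table, by contrast, 3 of the 4 measured fibrinogen and acute phase genes fell in each line (background 10.7% in MKN45 and 14.1% in AGS). None of the 4 was called there, and FGG fell by 0.79 in MKN45 and 1.07 in AGS.

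S100P, a calcium-binding protein of gastrointestinal tumours, rose by 1.11 in MKN45 and 3.00 in AGS. MYH4, a myosin heavy chain of fast muscle, rose by 0.53 and 2.96 in the same order. FILIP1L, which was described as a regulator of migration, changed by -0.09 in MKN45, which did not pass, and rose by 1.76 in AGS. In the value table FILIP1L was called with the opposite sign (0.43), with a fall of 0.32 in AGS. In the signals, the chemokines and NF-kappaB feedback genes held 5 calls lower in MKN45 and 1 higher among 16. CXCL8, which attracts neutrophils, rose by 0.98 in MKN45 and by at least 2.18 in AGS. A second CXCL8 probe was not called (interaction -0.49, against -1.54). CXCL10, an interferon-induced chemokine, fell by 0.76 in MKN45 and rose by at least 0.28 in AGS, where DMSO arrays were not well above background. CXCL1 and CXCL2 fell in MKN45 by at least 1.07 and 0.54, to levels not well above background. Only 1 member was called lower among the 11 detected on all 12 arrays.

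The most positive interactions in the signals included 3 pregnancy-specific glycoproteins, which are encoded in a cluster on chromosome 19 and belong to the CEACAM family. PSG9 was at 8.09, 7.96 and 8.14 in MKN45 VP and 6.64, 6.55 and 6.57 in MKN45 DMSO, against 6.45, 7.23 and 6.83 in AGS VP and 6.80, 6.91 and 6.42 in AGS DMSO, where the groups overlapped. PSG11 rose by 1.18 in MKN45 and fell by 0.40 in AGS, and PSG4 rose by 0.79 and fell by 0.61. Members of this family are near copies of each other, so a probe may read more than 1 of them. FGD3, an exchange factor for CDC42, had the most positive interaction among genes above background on all 12 arrays, 1.77 ± 0.24, with 8.57, 8.36 and 8.58 in MKN45 VP and 7.28, 7.21 and 6.95 in MKN45 DMSO, against 6.07, 6.35 and 6.83 in AGS VP and 6.86, 6.60 and 7.04 in AGS DMSO. It rose in MKN45 alone. SLC40A1, ferroportin, the iron exporter, rose by 1.69 in MKN45 and 0.32 in AGS, while a second probe of it was not called (interaction 0.94, against 1.36). DPYSL3 and ATF7IP2 fell mainly in AGS, by 1.61 and 1.13, whereas in MKN45 DPYSL3 fell by 0.28 and ATF7IP2 rose by 0.42.

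Targets of p53, the tumour suppressor that answers DNA damage, were called higher in MKN45 for 6 of 18 and lower for 0, with a median interaction of 0.20. MDM2, the ligase that degrades p53, was at 6.75, 6.72 and 6.88 in MKN45 VP and 6.09, 6.34 and 6.26 in MKN45 DMSO. In AGS it was at 6.19, 6.49 and 6.24 with VP and 7.04, 7.05 and 6.72 with DMSO, so the groups separated in opposite directions in the lines. SESN1, a stress-induced inhibitor of growth signalling, rose by 0.62 in MKN45 and fell by 0.49 in AGS. The other called targets, TP53INP1, TP53I3, DDB2 and XPC, fell in AGS. The falls of DDB2 and XPC, which find damaged DNA for repair, were -0.72 and -0.70. With a median shift 3 targets were called higher and 0 lower. In the value table the direction was opposite, with 0 of 18 targets called higher and 3 lower (background 6.65% and 5.02%).

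Chaperones that fold proteins in the endoplasmic reticulum were called higher in MKN45 for 5 of 17 and lower for 0, 3 higher without AGS VP replicate 1. PDIA4, a disulfide isomerase, rose by 0.44 in MKN45 and fell by 0.35 in AGS. MANF, a factor secreted under stress of this compartment, changed by -0.02 in MKN45, which did not pass, and fell by 0.78 in AGS. Heat shock chaperones of the cytosol and mitochondria had 5 calls higher and 2 lower among 16. HSPA8, the constitutive HSP70, was at 11.87, 11.70 and 12.11 in MKN45 VP and 13.24, 12.99 and 13.19 in MKN45 DMSO, against 10.83, 10.89 and 10.72 in AGS VP and 13.01, 13.04 and 13.07 in AGS DMSO, so it fell in both lines and further in AGS. The number of heat shock calls was unstable, at 3 to 6 in either direction with 1 array left out, and 3 without MKN45 VP replicate 1, MKN45 VP replicate 3, MKN45 DMSO replicate 3, AGS VP replicate 1, AGS VP replicate 2 or AGS DMSO replicate 1. Without MKN45 VP replicate 2 or MKN45 DMSO replicate 2 it was 4.

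Genes of sterol and fatty acid synthesis were called higher in MKN45 for 4 of 19 and lower for 0. All the called members had fallen in AGS. FASN, fatty acid synthase, was at 10.07, 9.94 and 9.87 in MKN45 VP and 10.58, 10.28 and 10.81 in MKN45 DMSO, against 9.17, 9.05 and 9.21 in AGS VP and 11.18, 10.78 and 10.46 in AGS DMSO. IDI1, of the isoprenoid pathway, fell by 1.07 in AGS and changed by -0.23 in MKN45, which did not pass. Lists of basic cell functions lay at or below the background of 11.2% called. The cytosolic ribosomal proteins had 0 of 26 called, the mitosis genes 3 of 32, the replication genes 3 of 32 and the oxidative phosphorylation subunits 2 of 31. The proteasome subunits had 3 of 27 called, all higher in MKN45, a share at the background. Their interactions lay above 0 for 24, with a median of 0.32. The fall passed for 3 subunits in MKN45 and 18 in AGS (background 23.1% and 30%). These counts were not read as a difference between the lines. Signs were opposite in the value table, where 3 of 27 were called lower in MKN45 and 0 higher. There, 26 interactions lay below 0, with a median of -0.13.

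**Figure D4:**
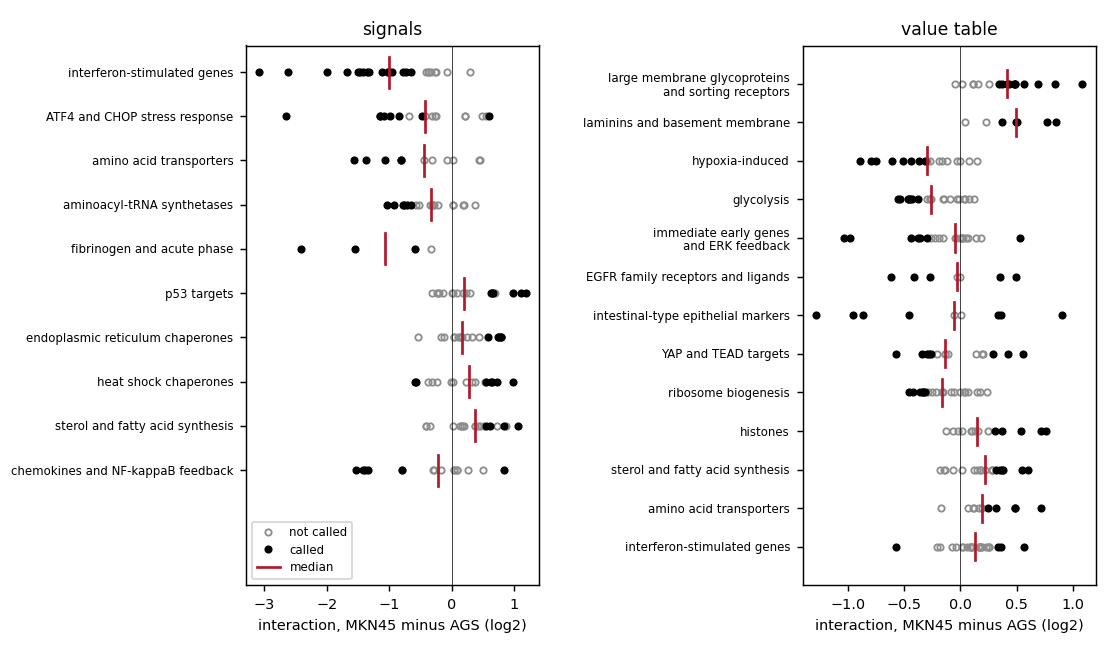
Interaction (log2, MKN45 minus AGS) of each measured member of the gene lists described in the text, signals on the left and value table on the right, with called members filled, other members open and a red bar at the median of a list. Interferon-stimulated genes lie below 0 in the signals for 25 of 26, and large membrane glycoproteins lie above 0 in the value table for 16 of 17.

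Among the genes that moved in opposite directions in the signals, SLC29A3, a lysosomal nucleoside carrier, was at 7.47, 6.97 and 7.55 in MKN45 VP and 6.40, 6.63 and 6.65 in MKN45 DMSO. In AGS it was at 6.67, 6.56 and 6.71 with VP and 7.41, 7.23 and 7.51 with DMSO. SLC7A8, an amino acid exchanger, and ELAPOR1 also rose in MKN45 and fell in AGS, with interactions of 1.40 and 1.46. The opposite pattern was seen for LGALS4, an intestinal galectin, at 7.9952, 8.08 and 7.66 in MKN45 VP and 8.45, 8.39 and 8.68 in MKN45 DMSO, against 11.05, 10.88 and 10.90 in AGS VP and 9.63, 9.79 and 9.84 in AGS DMSO. LGALS7, REG1A and TAF15 likewise fell in MKN45 and rose in AGS, with interactions of -1.82, -1.69 and -1.25. LGALS7 has a near-identical copy that its probe may read. FCMR fell in MKN45 by 0.41 or more and rose in AGS by at least 0.75, each to or from a level not well above background. In the value table LGALS4 was called with the opposite sign (0.34, adjusted p = 0.023), with a rise of 0.38 in MKN45. SLC7A8 was called there with the same sign (0.62), and the other genes of this paragraph were not called.

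Some genes were above background in a single line. There were 106 such genes for MKN45, of which 35 were called, and 67 for AGS, of which 37 were called. The call compares a change in one line with values near background in the other. Over all genes tested 11.2% were called. Since these genes were picked by where they were detected, their share of calls is not a result about them. KLRC2, a receptor of natural killer cells, was above background only on MKN45 VP arrays, at 6.79, 7.08 and 6.86, and rose there by at least 1.21. PFN2, a profilin, was detected in MKN45 alone, at 6.01, 5.99 and 5.70 with VP and 7.49, 7.13 and 7.10 with DMSO. ATP4A, the proton pump of the acid-secreting parietal cell, was above background only on AGS VP arrays, at 7.36, 7.15 and 6.68, a rise of at least 1.26. TMEM163, a zinc transporter, FGF19, an intestinal hormone of bile acid feedback, and GPT, an alanine aminotransferase, were likewise seen only there, with rises of at least 1.4952, 0.78 and 0.87. HBB, a globin chain, and TMEM253 were detected only on AGS DMSO arrays, at 6.93, 6.78 and 6.07 and 7.09, 7.14 and 6.71. HSPA1A, which has a near-identical copy, was detected only on MKN45 DMSO arrays, and its call (adjusted p = 0.0434) was kept only without MKN45 DMSO replicate 1 or AGS DMSO replicate 3 (adjusted p of 0.0653 to 0.0947 without each of the other 10).

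Names and values of the value table go out of step by 1 after row 21197, and they were realigned for all results given here. VP changes in it were smaller, with an SD over genes of 0.18 in MKN45 and 0.23 in AGS, and correlated between the lines at 0.62. The interaction was called for 1132 of 9696 genes (11.7%), higher in MKN45 for 645 (6.65%) and lower for 487 (5.02%). These shares are the background for the calls of each list in the value table. Leaving out 1 array gave 861 to 1310 calls, the variance of each gene alone 701, and the 4492 genes on rows before the break 577. The change passed in AGS alone for 486 of the called genes, in MKN45 alone for 273 and in neither for 53. It was in one direction and larger in AGS for 209, of which 205 were falls, and larger in MKN45 for 32. In 79 genes the lines moved in opposite directions, higher in MKN45 for 28 and lower for 51.

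Large membrane glycoproteins and sorting receptors, which pass through the secretory pathway and are cut or recycled at the surface, fell in MKN45 and further in AGS. Of 17 measured members, 15 fell in MKN45 and 15 in AGS (background 10.7% and 14.1%). The interaction was called higher in MKN45, where they fell less, for 11 and lower for 0, with a median of 0.42 against 0.005 over all genes. PTPRK, a receptor phosphatase at cell contacts, was at 7.76, 7.70 and 7.65 in MKN45 VP and 8.01, 8.04 and 8.05 in MKN45 DMSO, against 8.19, 8.42 and 8.33 in AGS VP and 9.63, 9.74 and 9.81 in AGS DMSO. It fell by 0.33 in MKN45 and 1.42 in AGS, the most positive interaction of this table (1.08 ± 0.09, adjusted p = 1.22e-08). PTPRF, its relative, fell by 0.59 and 1.28 in the same order. GLG1, a Golgi glycoprotein, fell by 1.34 and 1.83, and CPD, a carboxypeptidase of the trans-Golgi network, by 1.14 and 1.62. APP, the amyloid precursor protein, fell by 0.61 and 1.45.

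Laminins and other proteins of the basement membrane also fell further in AGS. Of 7 measured members of a list of 16, 6 fell in MKN45 and 6 in AGS (background 10.7% and 14.1%). The interaction was called higher in MKN45 for 5 and lower for 0. The called members were the laminin chains LAMA5, LAMB1, LAMB3 and LAMC1 and the proteoglycan agrin (AGRN). LAMB1 was at 8.79, 8.90 and 8.83 in MKN45 VP and 9.27, 9.30 and 9.33 in MKN45 DMSO, against 8.41, 8.32 and 8.28 in AGS VP and 9.55, 9.69 and 9.70 in AGS DMSO. LAMC1, the shared gamma chain, fell by 1.06 in MKN45 and 1.83 in AGS. Receptors with positive interactions were LIFR, the receptor of leukaemia inhibitory factor, and ROR1, a receptor of Wnt ligands, which fell by 1.15 and 1.01 in AGS and did not pass the test in MKN45. ATP9A, a membrane flippase, fell by 0.24 in MKN45 and 1.13 in AGS. ANK3, a membrane adaptor, rose by 0.55 in MKN45 and fell by 0.39 in AGS.

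A list of 11 genes held FAT1, IGF2R, CDH17, MUC1, ALCAM, ITGB1, ERBB3 and ITGAV, which the study picked from its own arrays, and YAP1, ALDH3A1 and MYC. Of these, 9 were called higher in MKN45 and 1 lower, and 8 fell in each line. Since most of them were chosen on these arrays, this count is not independent evidence. In the signals 1 was called higher and 3 lower, and 8 interactions lay below 0. FAT1, an atypical cadherin, was at 9.27, 9.25 and 9.28 in MKN45 VP and 10.73, 10.67 and 10.90 in MKN45 DMSO, against 9.01, 8.98 and 8.98 in AGS VP and 11.20, 11.09 and 11.18 in AGS DMSO. It fell by 1.4980 in MKN45 and 2.17 in AGS, a difference of 0.67 ± 0.09 (adjusted p = 5.67e-06). ALCAM, an adhesion molecule, and ITGB1, the shared integrin beta chain, had interactions of 0.64 and 0.58. In the signals ALCAM was called with the opposite sign (-0.52, adjusted p = 0.0436). With 1 array left out, this call was kept only without MKN45 DMSO replicate 1, AGS VP replicate 3 or AGS DMSO replicate 3. MUC1, a membrane mucin, was also called with opposite signs (-0.68 in the signals, against 0.43 in the value table). Other probes of MUC1 were called in the signals (-0.72 and -0.66) and not in the value table (-0.15 and 0.28). IGF2R, a sorting receptor, fell by 1.39 and 1.64, and its interaction of 0.25 ± 0.11 was not called (adjusted p = 0.133), except without MKN45 DMSO replicate 1 (adjusted p = 0.0373). YAP1 rose by 0.28 in MKN45 and changed by -0.13 in AGS, which did not pass. MET fell by 0.57 and 0.66, with an interaction of 0.10 ± 0.09. In the signals, FAT1 rose in AGS by 0.62 and changed by 0.29 in MKN45, which did not pass, and its interaction was not called (adjusted p = 0.244). Apart from its arrays, the study reported a fall of FAT1 with VP by western blot and qRT-PCR, and in patient organoids. That is the direction of the value table.

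**Figure D5:**
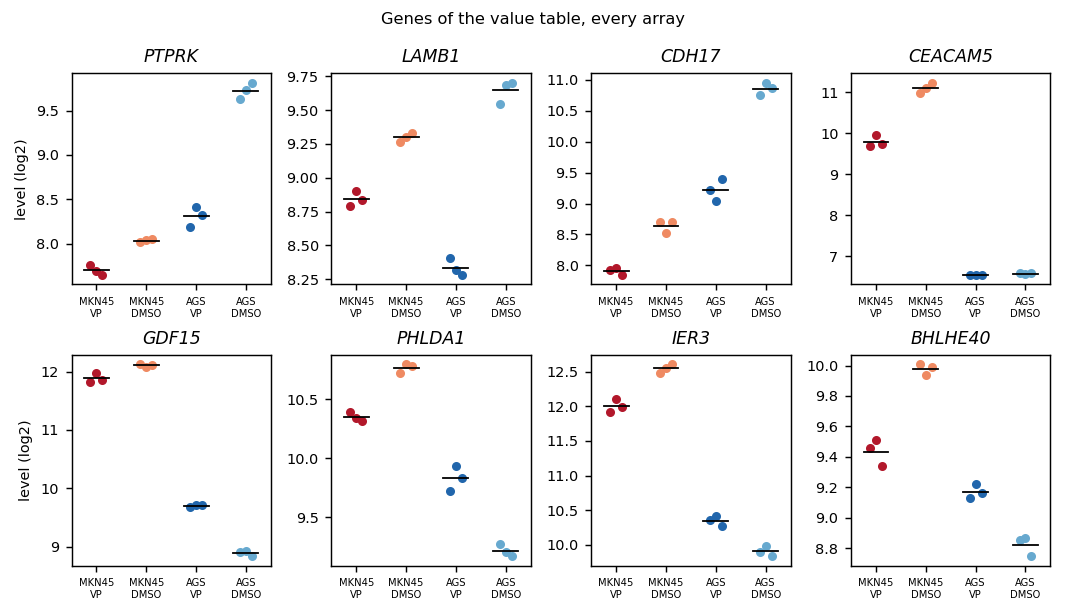
Level (log2) of 8 genes on each of the 12 arrays in the value table, by group (MKN45 VP, MKN45 DMSO, AGS VP, AGS DMSO), 1 point per array and a bar at the mean. PTPRK and LAMB1 fall further in AGS, CEACAM5 is above background in MKN45 alone, and GDF15, PHLDA1, IER3 and BHLHE40 fall in MKN45 and rise in AGS; levels of the lines are not on one scale.

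Hypoxia-induced genes fell in MKN45 and mostly did not pass in AGS. These are targets of HIF1A, which is stabilised when oxygen is low and raises glycolysis. Of 17 measured members, 13 fell in MKN45 and 3 in AGS, and 0 rose in MKN45 and 3 in AGS (background of rises 11% and 16.1%). The interaction was called lower in MKN45 for 8 and higher for 0, with a median of -0.30. The hypoxia response element was searched as ACGTG on either strand (CACGT in reverse). It was held by promoters of 8 of 14 measured members with an entry, by 33.4% of the genes tested and by 24.9% of all genes with an entry. Among the members with an entry, it was 4 of 6 of those called and 4 of 8 of those not called. The called members ADM and PFKFB4 held none. The promoters of the called members BHLHE40 and BNIP3, at chr3:4979187-4979486 (plus strand) and chr10:131981874-131982173 (minus strand), are shown with these letters in capitals.
BHLHE40: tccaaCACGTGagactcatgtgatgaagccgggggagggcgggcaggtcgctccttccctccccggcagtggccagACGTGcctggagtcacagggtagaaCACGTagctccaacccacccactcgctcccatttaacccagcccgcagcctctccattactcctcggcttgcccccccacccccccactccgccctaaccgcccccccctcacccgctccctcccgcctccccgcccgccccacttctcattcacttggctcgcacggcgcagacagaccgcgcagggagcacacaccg
BNIP3: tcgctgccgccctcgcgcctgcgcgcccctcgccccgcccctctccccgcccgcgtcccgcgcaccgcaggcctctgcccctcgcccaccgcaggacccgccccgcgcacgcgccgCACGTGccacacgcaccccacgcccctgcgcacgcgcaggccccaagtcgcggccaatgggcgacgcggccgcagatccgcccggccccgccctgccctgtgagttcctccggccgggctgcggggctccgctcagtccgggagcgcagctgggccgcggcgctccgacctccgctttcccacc

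BHLHE40, a repressor of the circadian clock, was at 9.46, 9.51 and 9.34 in MKN45 VP and 10.01, 9.94 and 9.99 in MKN45 DMSO, against 9.13, 9.22 and 9.16 in AGS VP and 8.85, 8.87 and 8.75 in AGS DMSO. It fell in every comparison of MKN45 arrays and rose in every comparison of AGS arrays (interaction -0.89 ± 0.08, adjusted p = 9.43e-08). NDRG1 fell by 0.48 in MKN45 and rose by 0.31 in AGS. BNIP3, a mitophagy receptor, was at 10.13, 10.01 and 9.97 in MKN45 VP and 10.72, 10.74 and 10.72 in MKN45 DMSO, and in AGS neither group was above background on all its arrays. ADM, the vessel-relaxing peptide adrenomedullin, fell by 0.72 in MKN45 and changed by -0.11 in AGS as measured, which did not pass and ended at a level not above background. In glycolysis, 7 of 20 members were called lower in MKN45 and 0 higher. HK1, a hexokinase, fell by 0.34 in MKN45 and rose by 0.21 in AGS. PGK1, phosphoglycerate kinase, was at 11.87, 11.91 and 11.96 in MKN45 VP and 12.40, 12.32 and 12.46 in MKN45 DMSO, while the AGS groups overlapped. TXNIP, which restrains glucose uptake and was on this list, fell by 1.63 in MKN45 and 1.07 in AGS. In the signals the hypoxia list rose instead, with 14 rises in MKN45 and 15 in AGS (background 22.9% and 26.3%). It had 1 call higher and 3 lower there.

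Among immediate early genes and feedback genes of the ERK pathway, 6 of 21 were called lower in MKN45 and 1 higher. IER3, an early response gene that protects from cell death, was at 11.92, 12.11 and 11.99 in MKN45 VP and 12.48, 12.55 and 12.61 in MKN45 DMSO, against 10.36, 10.42 and 10.27 in AGS VP and 9.89, 9.99 and 9.84 in AGS DMSO. EGR1, an early zinc finger factor, was the member called higher, as it changed by 0.01 in MKN45, which did not pass, and fell by 0.52 in AGS. GDF15, a stress-induced cytokine, had the most negative interaction among genes above background on all 12 arrays, -1.04 ± 0.08. It was at 11.83, 11.97 and 11.85 in MKN45 VP and 12.12, 12.07 and 12.12 in MKN45 DMSO, against 9.68, 9.71 and 9.71 in AGS VP and 8.91, 8.92 and 8.84 in AGS DMSO. ERRFI1, a feedback inhibitor of EGFR, fell by 0.53 in MKN45 alone. EGFR fell further in MKN45 (-1.04 against -0.62 in AGS), and ERBB3 further in AGS (-0.91, and -0.41 in MKN45). Neither of the 2 other probes of ERBB3 was called in the interaction, and another probe of EGFR was not called either (-0.06).

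Intestinal-type markers were split, with 3 called higher and 4 lower in MKN45 among 9. CEACAM5 fell in MKN45 by 1.31, to 9.69, 9.95 and 9.75 with VP against 10.9970, 11.11 and 11.24 with DMSO, and was above background on no AGS array. MUC13, a membrane mucin, fell by 1.34 in MKN45 and 0.47 in AGS, and REG4, a secreted lectin, by 1.13 and 0.18. CDH17 fell further in AGS, by 1.64, than in MKN45, by 0.73. For YAP and TEAD targets, 3 calls were higher and 5 lower among 15. CCN2, a matrix-associated growth factor, fell by 0.26 in MKN45 and 0.81 in AGS, and F3, tissue factor, by 0.80 and 0.23. The 8 calls of this list became 5 without MKN45 VP replicate 1, MKN45 DMSO replicate 2, AGS VP replicate 1, AGS DMSO replicate 1 or AGS DMSO replicate 3.

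Core histones were called higher in MKN45 for 5 of 14 and lower for 0. H2BC12 rose by 0.55 in MKN45 and fell by 0.22 in AGS, and H2BC5 rose by 0.61 in MKN45 and did not pass in AGS. Histone genes are near copies, so a probe may read several. Sterol and fatty acid genes were called higher in MKN45 for 6 of 19 and lower for 0, among them SQLE, squalene epoxidase, which fell by 0.17 in MKN45 and 0.77 in AGS. Amino acid transporters were called higher for 5 of 11 and lower for 0, a count that rests on the realignment: with names as deposited it was 2, with a median of -0.02, and 0 members lie on rows before the break. SLC1A3, a glutamate carrier, fell by 0.70 in AGS alone. Ribosome biogenesis factors were called lower in MKN45 for 6 of 21 and higher for 0 (background 5.02% and 6.65%). With the variance of each gene alone 3 were called lower. Of the 21, 3 rose in MKN45 and 12 in AGS (background 11% and 16.1%). The interferon-stimulated genes, which led the signals, had 3 calls higher and 1 lower among 26, with a median interaction of 0.13. IFI27 rose by 0.22 in MKN45 and changed by -0.14 in AGS, which did not pass.

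The interaction was called in both tables for 157 genes, a share close to the background. They were 14.4% of the calls in the signals, beside 11.7% of all genes called in the value table, and 13.9% of the calls in the value table, beside 11.2% of all genes called in the signals. The sign was the same in 72 and opposite in 85. A like sign of the interaction did not always mean a like change. PHLDA1, a pleckstrin-domain protein induced by growth factors, had interactions of -1.13 in the signals, against -1.03 in the value table. In the signals it rose in both lines, by 1.29 in MKN45 and 2.42 in AGS, whereas in the value table it fell by 0.42 in MKN45 and rose by 0.62 in AGS. CLDN2, a pore-forming claudin of tight junctions, fell in both lines of both tables and further in MKN45. In the signals its levels were 5.05, 5.02 and 5.40 in MKN45 VP, which were not well above background, 8.1996, 7.76 and 8.07 in MKN45 DMSO, 6.04, 6.12 and 5.31 in AGS VP and 7.53, 7.39 and 7.59 in AGS DMSO. In the value table it fell by 1.31 in MKN45 and 0.39 in AGS. TENM3, a teneurin of cell contacts, fell further in AGS in both tables, with interactions of 0.71 and 0.78, the first of which lost its call without MKN45 VP replicate 3, MKN45 DMSO replicate 1, AGS VP replicate 2 or AGS DMSO replicate 3 (adjusted p of 0.0565 to 0.0669). NAV2, UNC5CL, MYEOV, PTGS2 and CDKN1C also had the same sign in both, with interactions in the signals and the value table of 0.82 and 0.68 for NAV2, and 1.22 and 0.66 for UNC5CL. A second NAV2 probe was called in neither table, at -0.33 for the signals and 0.39 for the value table. MYEOV had -0.87 and -0.81, and PTGS2 had -1.71 and -0.64. PTGS2 rose in the signals and fell in the value table, by 1.16 in MKN45 and 0.52 in AGS. CDKN1C kept its call in the signals only without MKN45 VP replicate 3, MKN45 DMSO replicate 3, AGS VP replicate 1 or AGS DMSO replicate 3 (adjusted p of 0.0609 to 0.0904 without each of the other 8).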

How the data were processed

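RNA of 12 samples was read on Illumina HumanHT-12 V4 arrays, with groups taken from the labels. The authors deposited a table of linear signal intensities with a detection p-value per probe, exported from GenomeStudio (version not given in the sources used here). They also deposited a value table, entered as a score because 1 row holds linear signals and the rest log2 values. The study's methods name quantile normalization of log2 data. The sorted values of arrays of 1 line differ by at most 0.001, so normalization was done within each line. Beyond row 21197 its values belong to the probe of the next row, and the names of the 26126 rows after it were moved.

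Signals were corrected and quantile normalized with neqc of limma 3.58.1 in R 4.3.3, with an offset of 16. A probe was kept if in some group each of its 3 arrays had a detection p-value under 0.01 (16021 of 47323), and the brightest probe stood for its gene. The platform annotation gave 1 symbol for 30113 probes, several for 8 and none for 17202; 30074 identifiers matched RefSeq. The same genes were tested in the value table. Each table was fitted by group with lmFit and eBayes, and p-values were adjusted by Benjamini-Hochberg over all genes, with a threshold of 0.05. Where a group was above background on no array, a change is a bound: the lowest normalized level among detected probes of each array, or the level of the probe itself where that is higher, stands for the dim group. Background in the value table was the mode of each array plus 2.326 times the spread below it. The fit was tested on simulated data.

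Genes were named by rank of the interaction: the leading genes above background on all 12 arrays, those with opposite changes, those seen in a single line, those called in both tables with the same sign, up to 4 members of each list described and a list of genes that are mostly those the study picked. Other members named were added from their lists after their values were seen. Members and lists were chosen with earlier results of these data known. Alternatives were other background corrections, offsets, normalizations, filters, priors, array weights, a replicate block, each array left out, and the value table as deposited. Figures were drawn with matplotlib 3.10.9 in Python 3.11.15.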

Additional observations from a re-analysis of the deposited data

Results flagged for a closer look

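Every called interaction is a tested difference between the line labels, and these results were marked for that reason. For the signals a line is again only the label of an array. In the signals there were 558 genes with a change higher in MKN45, 529 with a lower one, and 79 that passed in both lines in opposite directions. Among the genes named by rank, those that fell in MKN45 and rose in AGS had interactions, as measured, of -2.62 for BST2, -1.82 for LGALS7, -1.79 for LGALS4, -1.7 for FCMR, -1.69 for REG1A, -1.41 for IFI44, -1.34 for CXCL10 and -1.25 for TAF15. Those that rose in MKN45 and fell in AGS had 0.788 for PDIA4, 1.12 for SESN1, 1.19 for MDM2, 1.4 for SLC7A8, 1.41 for PSG4, 1.46 for ELAPOR1, 1.51 for SLC29A3, 1.55 for ATF7IP2 and 1.58 for PSG11.

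The value table held 645 changes that were higher and 487 lower in MKN45, and 79 genes passed in opposite directions. Of the genes named by rank, a fall in MKN45 and a rise in AGS was seen for GDF15 (-1.04), PHLDA1 (-1.03), IER3 (-0.985), BHLHE40 (-0.89), MYEOV (-0.809), NDRG1 (-0.794) and HK1 (-0.542). A rise in MKN45 and a fall in AGS was seen for AJUBA (0.419), a LIM protein, and for CDKN1C (0.635), an inhibitor of the cell cycle. H2BC12 (0.762) and ANK3 (0.932) moved likewise. Other probes of AJUBA had interactions of 0.05 and 0.09 and were not called.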

How the results depend on the processing

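In the signals the number of called genes, 1087, was 428 when arrays were aligned by a median shift and not by quantiles, which moved the median interaction of all genes to 0.14 against 0.03, and 1806 with array weights. With 1 array left out it ran between 684 and 1109. With each line and replicate number as a block it was 970. In the value table the number, 1132, was 701 with the variance of each gene alone and 577 on the rows before names and values go out of step, where only 4492 genes were tested. With 1 array left out it ran between 861 and 1310, and with the block it was 1168. The same-numbered arrays of a line correlated at -0.10 to 0.21 in their deviations, so the numbers were not taken as pairs. The block ended the calls of ALCAM, HSPA1A, SQLE, DNAJA1 and CDKN1C in the signals. With the names of the value table as deposited, interactions changed sign for MYEOV (0.0593), PTPRK (-0.139), REG4 (0.079), SCD (-0.101), SLC1A5 (-0.134), SLC7A5 (-0.038), TENM3 (-0.164), TXNIP (0.138) and UNC5CL (-0.0413), because a row past the break is then read as another probe. Of the genes named with a call, 58 of 80 of the signals and 48 of 72 of the value table kept it under every alternative that tested them. Stricter filters and the rows before the break left some of these genes out, and a gene left out could not lose its call there. The cause of the other changes was not tested. Another probe was measured for 22 named genes in the signals, and 24 of 26 such probes had the same sign and 16 were called the same way. In the value table these counts were 33 and 20 of 36. With 3 arrays in a group, the median standard error of the interaction was 0.18 for the signals, while 0.0876 was that of the value table, which limits the differences that could be detected.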

Other observations

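Other genes also moved unequally, and those of this paragraph were singled out after their values were seen. In the signals, targets of the aryl hydrocarbon receptor, which senses planar ring compounds, had 2 calls higher and 2 lower among 6 measured members. CYP1A1, a monooxygenase that is induced by this receptor, rose by 2.10 in AGS and changed by 0.43 in MKN45, which did not pass. ALDH3A1, an aldehyde dehydrogenase, fell in both lines, with changes of -1.36 in MKN45 and -2.07 in AGS, so members of the list moved in both directions. MMP10, stromelysin-2, which cuts matrix proteins, averaged 7.18 in MKN45 VP and 5.78 in MKN45 DMSO, against 8.69 in AGS VP and 4.89 in AGS DMSO, which was not well above background. MMP1, interstitial collagenase, was called the other way, with a rise of 2.18 in MKN45 and 1.35 in AGS. HSD3B1, an enzyme of steroid hormone synthesis, averaged 12.16 in MKN45 VP and 10.34 in AGS VP, against DMSO means of 5.46 in MKN45 and 5.11 in AGS, neither well above background.

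In the value table, a few other genes picked in the same way stood out singly. KRT18, a keratin of simple epithelia, fell by 0.40 in MKN45 and rose by 0.35 in AGS, and KRT8, its partner in filaments, fell by 0.20 and rose by 0.22. Over the keratin list 2 of 6 measured members were called, and KRT19 changed by 0.04 in MKN45 and 0.10 in AGS, neither of which passed. LAMP1 and LAMP2, membrane proteins of the lysosome, fell in both lines and further in AGS, with changes of -0.55 in MKN45 and -1.0047 in AGS for LAMP1, and -1.07 and -1.61 for LAMP2. The autophagy and lysosome list as a whole had 5 calls higher in MKN45 and 2 lower among 21, with a median interaction of 0.01. TFRC, the transferrin receptor, fell by 0.84 in MKN45 and 1.34 in AGS. In the signals, by contrast, LAMP1 changed by -0.09 in MKN45 and -0.37 in AGS.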
